A study of Drosophila melanogaster with 84 samples.

Results

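The genes described here belong to insulin, FOXO and TOR signalling. They are the 10 genes *InR*, *chico*, *Akt*, *foxo*, *Thor*, *gig*, *Tsc1*, *Tor*, *S6k* and *ImpL2*, taken by symbol from the 23932 features of a table of fat body RNA from *Drosophila melanogaster*. All 10 were found. *Akt* is listed there under its older symbol *Akt1*. They were picked by symbol and not by a measured value, but earlier results of these data were known when they were chosen.

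Cells of the fly read nutrient supply through 2 linked branches. Insulin-like peptides bind the insulin receptor InR, and the adaptor protein chico passes the signal through phosphoinositide 3-kinase to the kinase Akt, which keeps the transcription factor foxo out of the nucleus. In the other branch the kinase Tor, which is held back by the complex of Tsc1 and gig, responds to amino acids and phosphorylates S6k and the translation repressor Thor. In the fat body, the fly's counterpart of liver and adipose tissue, both branches are known for tying growth and storage to feeding. The data are RNA levels, so they hold neither protein amounts nor phosphorylation.

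The series compared temperature, diet and genotype over the day. The groups were WT flies at 18°C on the diet of 15% sucrose and yeast (24 libraries), WT flies at 25°C on the diluted diet of 5% sucrose and yeast, written 5% SY (24 libraries), and Clk-Jrk flies at 25°C on 15% SY (12 libraries), and each was set against WT flies at 25°C on 15% SY (24 libraries). WT was the strain that the labels name w1118 and the study's methods Iso31, and Clk-Jrk, a dominant mutant allele of the clock activator Clk, had been backcrossed 7 times to it. All groups were mated females, about 3 days old at the start, kept in light-dark cycles and sampled on day 5. By the study's account, WT flies on 15% SY were raised at 25°C and entrained for 3 days. At about 7 days old they were moved to 18°C or left at 25°C, and sampling followed after 5 days there. That account does not describe the 5% SY and Clk-Jrk groups. WT groups were sampled every 2 h at 12 time points from ZT2 to ZT24 and Clk-Jrk flies every 4 h at 6 time points, where ZT counts hours from lights on, with 2 replicate libraries per time point. Each library pooled the abdominal fat tissue of about 10 flies. By the labels, flies in light and flies in darkness came from separate incubators with inverse schedules, so incubator and light phase cannot be told apart. The labels do not say whether replicates came from separate cultures.

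The values are TPM, a share of transcripts scaled by transcript length, from which read depth cannot be recovered, so every error below is the spread between libraries. Between 11497 and 14702 features were above 0 in a library. The labels were checked on the clock gene *tim*, a target of Clk, which had a median of 3.47 TPM in Clk-Jrk libraries and 73.6 TPM in WT libraries at 25°C at the same 6 time points. Fat body markers summed to medians of 53294 TPM at 18°C, 73680 TPM on 5% SY, 122073 TPM in Clk-Jrk and 84264 TPM in WT at 25°C. Oenocyte markers summed to medians of 31785 TPM at 18°C, 31768 TPM on 5% SY, 31176 TPM in Clk-Jrk and 27630 TPM in WT at 25°C. In single libraries, germline and follicle cell sums reached 6609 TPM (WT at 25°C) and gut sums 5963 TPM (5% SY). Muscle markers were also present in all groups, and their sums are given beside the comparisons below. Within a group, the libraries of WT at 25°C from replicate 1 at ZT4 and ZT2 stood apart, with median correlations to their group of 0.886 and 0.920, where the median of that group was 0.949. On 5% SY the lowest was the library of replicate 2 at ZT22, with 0.917, where the median of that group was 0.943. That library was not left out on its own in the checks below.

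The 10 genes covered a wide range of levels. *Thor*, which encodes the 4E-BP repressor of cap-dependent translation and is a textbook foxo target, averaged 693 ± 159 TPM at 18°C, 715 ± 197 TPM on 5% SY, 562 ± 121 TPM in Clk-Jrk and 616 ± 154 TPM in WT at 25°C (SD, n = 24, 24, 12 and 24). It was the most abundant member in each group. *ImpL2*, a secreted protein that binds insulin-like peptides and restrains them, came next, with means of 123 ± 54.4 TPM at 18°C, 128 ± 39.0 TPM on 5% SY, 46.5 ± 13.9 TPM in Clk-Jrk and 110 ± 45.2 TPM in WT at 25°C. At the other end, *InR* averaged 1.60 ± 0.979 TPM at 18°C, 1.33 ± 0.666 TPM on 5% SY, 0.490 ± 0.366 TPM in Clk-Jrk and 1.36 ± 0.444 TPM in WT at 25°C. *InR* was therefore the only member below the filter of a median above 5 TPM, and the other 9 passed it within each group taken alone. The remaining 7 members lay between means of 8.06 and 30.3 TPM. TPM is scaled by transcript length, so these levels can be set against each other.

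**Figure D1:**
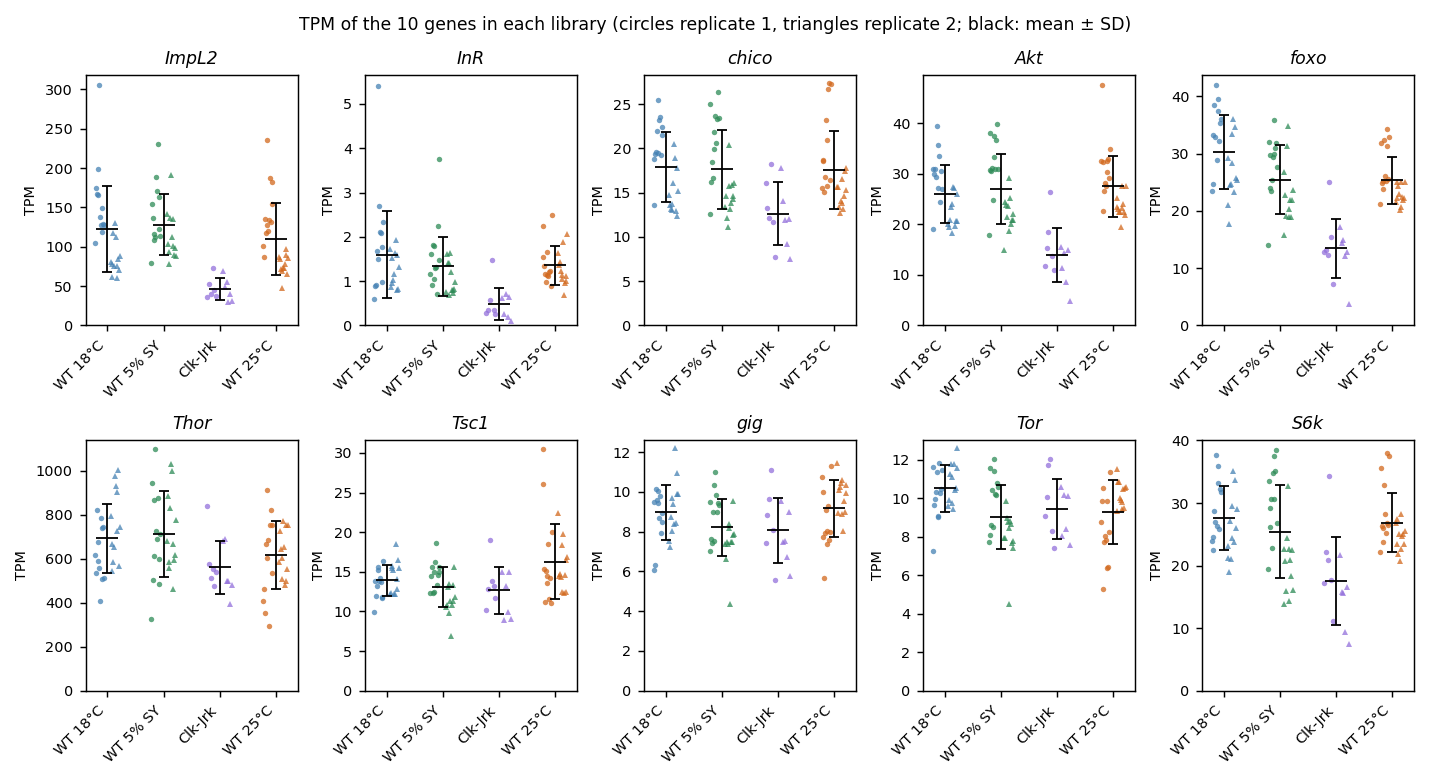
TPM of each of the 10 genes (vertical axes, linear and starting at 0) in every library of the 4 groups, with circles for replicate 1, triangles for replicate 2 and black bars for the mean ± SD. The Clk-Jrk libraries sit low for *Akt*, *foxo* and *ImpL2*, where their means are 13.9, 13.4 and 46.5 TPM, while *Thor* and *Tor* overlap in all groups.

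The positions of the members were read from a BDGP6 annotation. *InR* lies at 3R:21570248-21619321, *Akt* at 3R:16099228-16105670, *foxo* at 3R:14056945-14087978 and *Tsc1* at 3R:24130307-24134654. *chico* lies at 2L:10242512-10247078, *Thor* at 2L:3478434-3479612 and *Tor* at 2L:13004480-13013197, and *gig* lies at 3L:20129181-20139010, *S6k* at 3L:5797549-5810931 and *ImpL2* at 3L:4224006-4236147. Exons of 8 members overlapped no other gene. *ImpL2* shared 1651 of its 2667 exon bases with *CG46460* on the same strand, so reads in the shared part were split by estimate, and *CG46460* had a mean of at most 2.74 TPM in a group. *chico* shared 380 exon bases with the antisense RNA *asRNA:CR44995*, which had a mean of at most 1.53 TPM, and without strand information reads from the overlap cannot be told apart.

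The first comparison asked how the genes differed at 18°C from 25°C in WT flies. Of the 9 members tested, *foxo* and *Tor* were higher at 18°C, none passed as lower, and the others did not pass. That is 2 of 9, where 23.1% of all 7157 genes tested were called higher and 30.5% lower, so the share higher was near that of all genes. Differences are given in log2(TPM + 1) between means over the day, and a call is a limma adjusted p below 0.05. The median difference of the 9 members was 0.03, and that of all genes tested was -0.06.

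The forkhead factor *foxo* had 17.7, 30.7 and 41.9 TPM (lowest, median, highest of 24) at 18°C, against 20.2, 24.9 and 34.3 TPM in WT at 25°C. The groups overlapped, but 8 of 24 libraries at 18°C were above the highest at 25°C, and the mean of the 18°C libraries was higher at 11 of 12 time points. The difference was 0.24 ± 0.07 (SE), with an adjusted p of 0.0073. *Tor*, the kinase subunit of both TOR complexes, had 7.25, 10.5 and 12.6 TPM at 18°C, against 5.29, 9.84 and 11.5 TPM at 25°C. It differed by 0.17 ± 0.06 with an adjusted p of 0.019 and was higher at 10 of 12 time points. Without replicate 1 the *Tor* difference was 0.07, with an adjusted p of 0.29.

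*Tsc1*, whose product inhibits Tor through the small GTPase Rheb, had 9.95, 13.9 and 18.5 TPM at 18°C, against 11.1, 14.7 and 30.5 TPM at 25°C. Its difference of -0.18 ± 0.08 missed the threshold with an adjusted p of 0.052, and it passed when libraries were divided by their median ratio to the gene-wise means, the scaling used here as an alternative (-0.14, adjusted p = 0.014). It was -0.11 both without replicate 1 (adjusted p = 0.38) and without the pair of 25°C libraries that stood apart (adjusted p = 0.17). With scaling *foxo* and *Tor* stayed called higher, 2 of 9 where 26.6% of all genes were, and *Tsc1* was 1 of 9 lower, where 30.8% were. The highest value at 25°C, 30.5 TPM, came from the library at ZT4 of replicate 1 that stood apart. *gig*, the partner of *Tsc1* in the complex, differed by -0.03 ± 0.06 and the growth kinase *S6k* by 0.03 ± 0.07.

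The upstream members did not pass at 18°C. *chico*, the fly insulin receptor substrate, differed by 0.03, with a 95% interval of -0.14 to 0.19, and *Akt* by -0.08, with an interval of -0.24 to 0.09. *Thor* had 408, 672 and 1006 TPM at 18°C, against 296, 625 and 912 TPM at 25°C, and its difference of 0.18 had an interval of -0.03 to 0.39. *ImpL2* differed by 0.15, with an interval of -0.16 to 0.45. *InR*, tested with a lower filter of 1 TPM among 9308 genes, differed by 0.09 ± 0.09 with an adjusted p of 0.44. These intervals leave room for a rise of the size seen for *foxo* in *Thor* and *ImpL2*, and for a fall of that size in *Akt*. The error of *InR* leaves room for such a rise too. Of the muscle markers, 11 of 12 were called higher at 18°C, and 9 of 9 germline and follicle cell markers tested were called lower. In replicate 1, muscle sums were 4169 to 8581 TPM at 18°C and 2105 to 4548 TPM at 25°C. In replicate 2 they were 2920 to 4678.5 TPM at 18°C and 2531 to 4431 TPM at 25°C. The higher muscle sums at 18°C were thus mainly those of replicate 1. Of the markers tested, 5 of 5 for hemocytes and 2 of 3 for oenocytes were called higher, with hemocyte sums of 65.6 to 197 TPM at 18°C and 38.5 to 94.5 TPM at 25°C, and 2 of 8 fat body markers were higher and 4 lower. Their part in the member differences was not tested, and in such bulk tissue fewer cells of a type and less RNA per cell cannot be told apart.

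**Figure D2:**
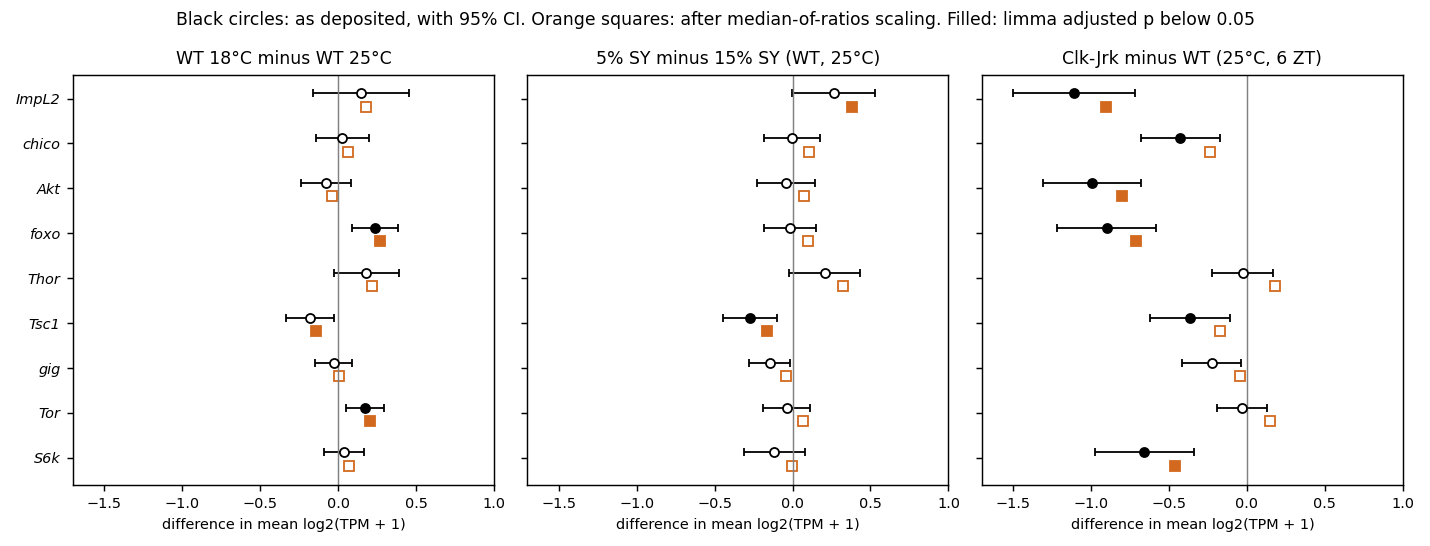
Difference in mean log2(TPM + 1) (horizontal axis) of the 9 members tested in the 3 comparisons, with black circles and 95% intervals for the deposited values and orange squares for the scaled values, filled where the limma adjusted p is below 0.05. In the Clk-Jrk comparison 6 circles and 4 squares are filled on the negative side, while in the other comparisons the largest difference without scaling is the -0.27 of *Tsc1* on 5% SY.

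The second comparison set 5% SY against 15% SY at 25°C. *Tsc1* was the 1 member called, and it was lower on 5% SY. No member of 9 was called higher, where 6.26% of 7000 genes were, and 1 of 9 lower, where 25.8% of all genes were. *Tsc1* had 6.94, 13.2 and 18.7 TPM on 5% SY, against 11.1, 14.7 and 30.5 TPM on 15% SY, and was lower at 10 of 12 time points. Its difference was -0.27 ± 0.09, with an adjusted p of 0.020. The call was lost without replicate 2 (-0.13, adjusted p = 0.55) and without the pair of 15% SY libraries that stood apart (-0.21, adjusted p = 0.074).

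*Thor* had 324, 686 and 1102 TPM on 5% SY, against 296, 625 and 912 TPM on 15% SY. The difference of 0.21, with a 95% interval of -0.02 to 0.43 and an adjusted p of 0.16, did not pass, although the mean was higher at 10 of 12 time points. *ImpL2* had 78.0, 115 and 231 TPM on 5% SY, against 47.3, 93.5 and 236 TPM on 15% SY. Its difference of 0.26 ± 0.14 did not pass (adjusted p = 0.13), and it passed as higher after scaling (0.38, adjusted p = 0.021). It was 0.55 without replicate 1 (adjusted p = 0.0015) and -0.020 without replicate 2 (adjusted p = 0.95). Without replicate 1, *gig*, *Tor* and *S6k* were also called, all lower on 5% SY, with differences of -0.36, -0.32 and -0.29. *chico*, *Akt* and *foxo* differed by -0.0029, -0.04 and -0.02, and *InR* by -0.04 with an adjusted p of 0.77 at the lower filter.

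Scaling matters for this comparison. It moved the median of all genes up by 0.11, and the calls over all genes changed to 1080 higher and 1435 lower with scaling, from 438 higher and 1809 lower without it. Relative to that, 15.4% of all genes were higher and 20.5% lower after scaling, and 1 of 9 members was called in each direction. The sign of *chico*, *Akt*, *foxo* and *Tor* was positive after scaling and negative before, none of them passing. Muscle markers were called higher for 5 of 12, with sums of 2321 to 5155 TPM on 5% SY and 2105 to 4548 TPM on 15% SY, and 7 of 9 germline markers tested were called lower, and their part was not tested.

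The third comparison, Clk-Jrk against WT at 25°C at the 6 shared time points, held the largest differences of the 3 comparisons. *ImpL2*, *Akt*, *foxo*, *S6k*, *chico* and *Tsc1* were lower in Clk-Jrk, which is 6 of 9 members, where 36.5% of all 7093 genes were lower. No member was higher, where 10.2% of all genes were. Over all genes, scaling moved the median by 0.19 and turned 725 higher and 2591 lower calls into 1471 and 1481. After scaling, 4 of 9 members were called lower, *ImpL2*, *Akt*, *foxo* and *S6k*, where 20.9% of all genes were lower, and none higher, where 20.7% were. The median difference of the 9 members was -0.43 without scaling, and that of all genes was -0.22.

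The kinase *Akt* had 4.85, 13.995 and 26.5 TPM (lowest, median, highest of 12) in Clk-Jrk, against 21.9, 27.1 and 32.5 TPM in WT. Of the Clk-Jrk libraries, 11 of 12 lay below the lowest WT library, and the difference was -0.99 ± 0.16 (adjusted p = 7.8e-05) and -0.80 after scaling. *foxo*, which Akt phosphorylates, had 3.81, 13.0 and 25.1 TPM in Clk-Jrk, against 21.2, 23.4 and 34.3 TPM in WT, with 11 of 12 libraries below the lowest in WT. Its difference was -0.90 ± 0.16 (adjusted p = 0.00024) and -0.71 after scaling. In both genes the 1 overlapping library was that of replicate 1 at ZT14.

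*ImpL2* had 30.3, 42.8 and 72.5 TPM in Clk-Jrk, against 47.3, 94.9 and 187 TPM in WT, so 7 of 12 libraries lay below the lowest WT value. It differed by -1.11 ± 0.20 (adjusted p = 0.00026) and by -0.91 after scaling, the largest difference among the members. *S6k*, a kinase of ribosomal protein S6, had 7.42, 16.9 and 34.4 TPM in Clk-Jrk, against 22.2, 26.2 and 38.0 TPM in WT. The difference was -0.66 ± 0.16 (adjusted p = 0.0030), and it was -0.46 with an adjusted p of 0.013 after scaling. These 4 genes were lower in Clk-Jrk at 6 of 6 time points.

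The calls of *chico* and *Tsc1* depended on the scale and on single replicates. *chico* had 7.46, 12.1 and 18.3 TPM in Clk-Jrk, against 13.4, 16.02 and 26.7 TPM in WT, a difference of -0.43 (adjusted p = 0.012) that became -0.24 (adjusted p = 0.13) after scaling. *Tsc1* had 8.98, 13.0 and 19.04 TPM in Clk-Jrk, against 11.1, 15.3 and 26.1 TPM in WT, a difference of -0.36 (adjusted p = 0.028) that became -0.17 (adjusted p = 0.083). Without replicate 1, without replicate 2 or without ZT22 neither passed, with differences of -0.33, -0.53 and -0.31 for *chico* and of -0.56, -0.17 and -0.39 for *Tsc1*, which was also not called without the WT library of replicate 1 at ZT2, which stood apart (-0.31, adjusted p = 0.056). *InR* was lower at 6 of 6 time points, with 0.110, 0.360 and 1.47 TPM in Clk-Jrk and 0.900, 1.18 and 1.89 TPM in WT, and 11 of 12 Clk-Jrk libraries lay below the lowest WT library. It is given as a description because its median passed the lower filter of 1 TPM only in WT.

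*Thor*, *Tor* and *gig* were not called in Clk-Jrk. *Thor* had 397, 526 and 839 TPM in Clk-Jrk, against 352, 594 and 752 TPM in WT, a difference of -0.03 with an interval of -0.23 to 0.17. *Tor* differed by -0.03, with an interval of -0.19 to 0.13, and *gig* by -0.23, with an interval of -0.41 to -0.04 and an adjusted p of 0.057. The signs of *Thor* and *Tor* turned positive with scaling.

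Other cell type markers moved with genotype too. Of 12 muscle markers, 11 were called lower in Clk-Jrk, with sums of 1639 to 3259 TPM in Clk-Jrk and 2388 to 4548 TPM in WT, 4 of 8 fat body markers tested were called higher and 1 lower, 3 of 9 germline and follicle cell markers and 3 of 4 Malpighian tubule markers were lower, and their part in the member differences was not tested. The Clk-Jrk library of replicate 1 at ZT14 was the highest for *Akt*, *foxo* and *S6k*. Its muscle sum of 2686 TPM was the highest of replicate 1. The library of replicate 2 at ZT10, with the highest sum of both replicates at 3259 TPM, had 14.3 TPM *Akt* and 15.0 TPM *foxo*. Both Clk-Jrk libraries at ZT22 were low, with 11 and 4.85 TPM *Akt* and 7.28 and 3.81 TPM *foxo*. Their muscle sums of 1639 and 1882 TPM were also the lowest of their replicates. Without ZT22 in both genotypes 4 members were called, with differences of -0.90 for *Akt*, -0.69 for *foxo*, -0.53 for *S6k* and -1.08 for *ImpL2*. Without replicate 2 only *Akt*, *foxo* and *ImpL2* of the 9 were called.

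A list of 58 further gene symbols of the pathway places these members among their partners. Of these, 56 were matched by symbol, and the entries *Lobe* and *CRTC* were not. Of its ligands, *Ilp1* was listed at 0 in every library. *Ilp2*, *Ilp3* and *Ilp5*, made mainly by neurons of the brain, had medians of at most 0.150 TPM in each group. Single libraries held more, up to 16.1 TPM *Ilp2*, 4.05 TPM *Ilp3* and 4.04 TPM *Ilp5* in WT at 25°C. The highest *Ilp2* value was 6.15 TPM at 18°C and 6.04 TPM on 5% SY, and *Ilp2* was at 0 in every Clk-Jrk library. *Ilp6* is the insulin-like peptide known from the fat body. It had 26.9, 43.9 and 97.7 TPM at 18°C, against 10.2, 24.4 and 47.9 TPM in WT at 25°C, with a difference of 0.90 ± 0.11 (adjusted p = 5.6e-09) at 12 of 12 time points. In Clk-Jrk it had 2.76, 5.71 and 6.96 TPM, against 12.5, 25.9 and 47.9 TPM in WT, and the genotypes did not overlap. That difference was -2.02 ± 0.14 (adjusted p = 4.7e-10), and -1.84 after scaling. On 5% SY it had a mean of 31.4 ± 13.6 TPM, against 25.6 ± 9.03 TPM on 15% SY, and did not pass (0.25, adjusted p = 0.099), though it passed after scaling (0.36, adjusted p = 0.017).

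At 18°C, 10 of 43 listed genes tested were higher and 13 lower, where 23.1% and 30.5% of all genes were. Of the 42 above 5 TPM in both groups, 10 were higher and 12 lower, where 22.5% and 28.8% of all such genes were. Besides *Ilp6*, the largest rises were those of the lipase and foxo target *Lip4* (0.54), the secreted lipocalin *NLaz* (0.52), *Sesn*, a sestrin that restrains TORC1 (0.34), and *mio*, a GATOR2 subunit (0.31). *srl*, the fly PGC-1 coactivator, fell by 0.71, the S-adenosylmethionine sensor *Samtor* by 0.70, the TORC1 component *PRAS40* by 0.36 and the kinase *Lkb1* by 0.35. The relaxin-like peptide *Ilp8* had 0.150, 1.12 and 11.4 TPM at 18°C, against 0.520, 6.25 and 45.5 TPM at 25°C, and it is known from ovarian follicle cells, whose markers were also lower.

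On 5% SY, 1 of 43 listed genes was higher and 14 lower, where 6.26% and 25.8% of all genes were. After scaling 3 were higher and 15 lower, where 15.4% and 20.5% of all genes were. The arm from receptor to Akt had 5 of 10 genes lower, among them *Pi3K21B*, the adaptor subunit of phosphoinositide 3-kinase (-0.60), and the insulin pathway ARF exchange factor *step* (-0.50). *slif*, a cationic amino acid transporter, fell by 0.69, *srl* by 0.83 and *Myc* by 0.46. *REPTOR-BP*, the partner of a transcription factor that TORC1 represses, was the 1 higher gene (0.23, adjusted p = 0.036). The libraries at ZT2 and ZT4 of replicate 1 on 15% SY, which stood apart, are in these values. On 15% SY the medians and highest values were 14.95 and 62.6 TPM for *slif*, 12.4 and 40.6 TPM for *Pi3K21B* and 17.2 and 67.1 TPM for *step*. Over all genes, 2247 calls became 2 without replicate 2 and 804 without that pair. How the pathway genes named here fared in those fits is not given.

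In Clk-Jrk, 2 of 42 listed genes were higher and 22 lower, where 10.2% and 36.5% of all genes were. Of the 37 above 5 TPM in both genotypes, 2 were higher and 17 lower, where 10.7% and 33.2% of all genes with that property were, and 8 of 10 genes of the arm from receptor to Akt were lower. After scaling 5 of 42 were higher and 19 lower, where 20.7% and 20.9% of all genes were. These 42 include genes above 5 TPM in WT only, for which the filter favours a lower level in Clk-Jrk. *Myc* and *REPTOR* were above 5 TPM in the median in WT only and are given as a description. *Myc*, a growth-promoting transcription factor downstream of both branches, had a mean of 2.45 ± 1.99 TPM in Clk-Jrk, against 7.94 ± 1.99 TPM in WT (-1.52). *REPTOR*, the factor that TORC1 represses, had 5.49 ± 3.19 TPM in Clk-Jrk, against 12.1 ± 2.41 TPM in WT (-1.12). *scyl*, an inhibitor of TOR, fell by 1.43 and *srl* by 1.16. The GATOR2 subunit *Nup44A* rose by 0.26 and *Sesn* by 0.23.

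**Figure D3:**
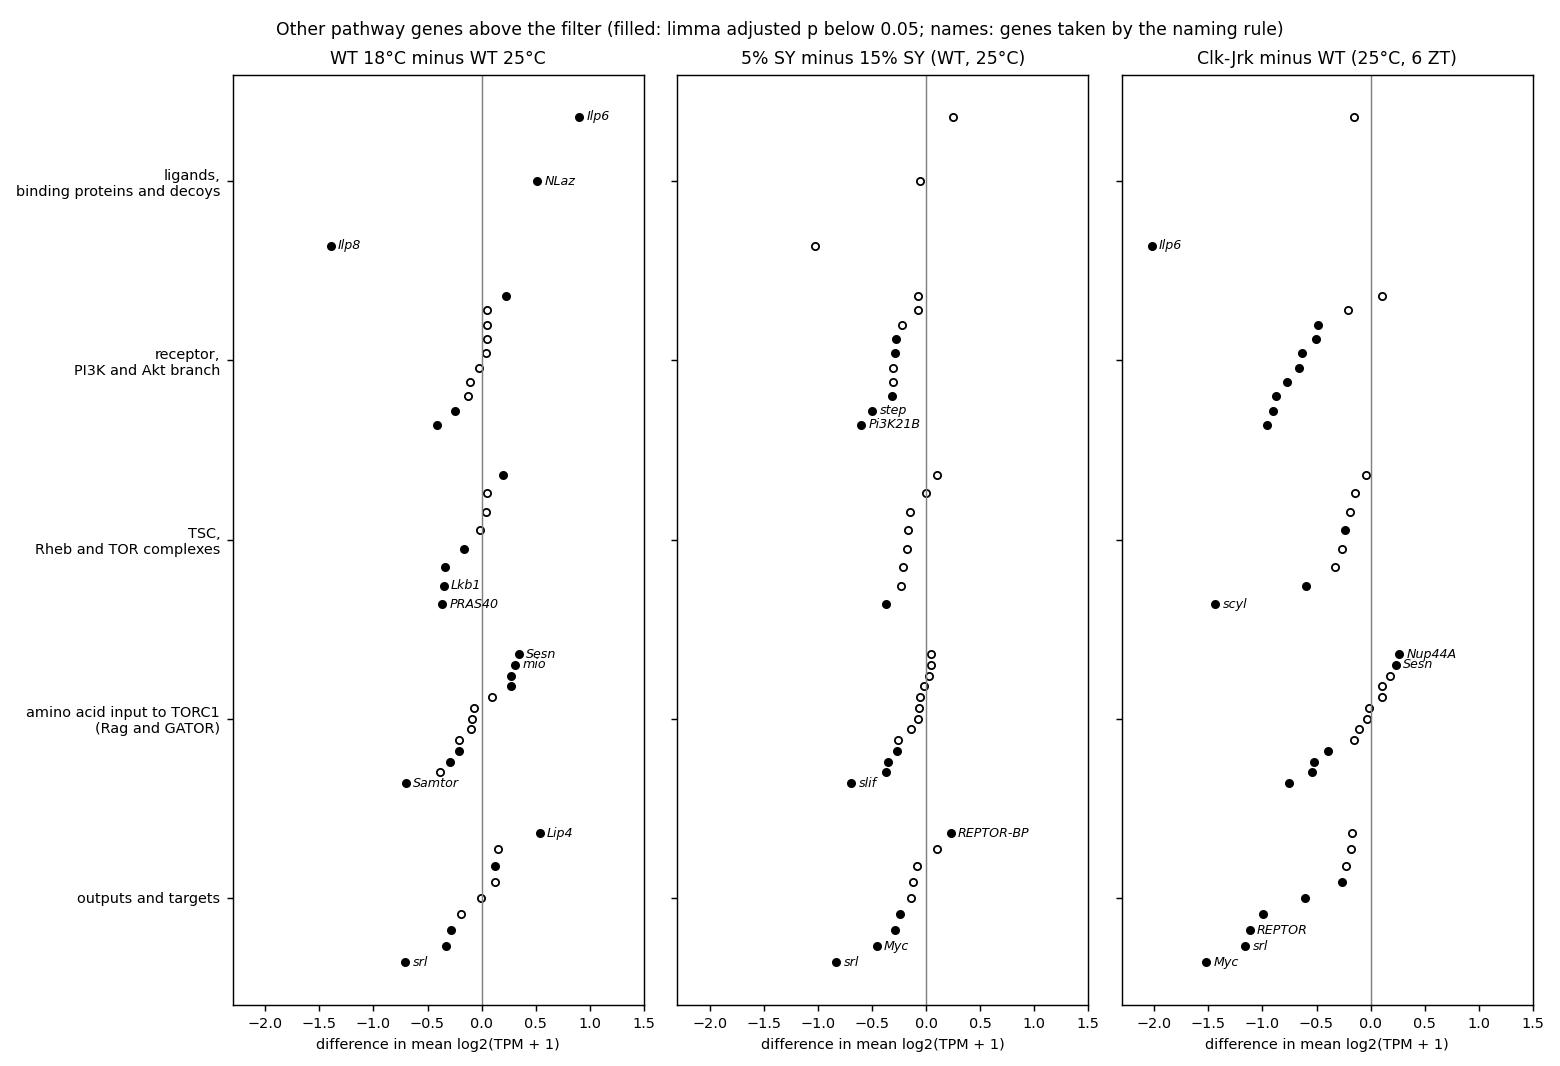
Difference in mean log2(TPM + 1) (horizontal axis) of the other pathway genes above the filter, in 5 functional classes, for the 3 comparisons, with filled points for a limma adjusted p below 0.05. *Ilp6* lies at 0.90 at 18°C and at -2.02 in Clk-Jrk, and 8 of 10 genes of the receptor to Akt class are filled on the negative side in Clk-Jrk.

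Time of day was examined by regressing TPM on the cosine and sine of 24 h, and a gene is called rhythmic at an F-test p below 0.1, without adjustment. The study used this p but also asked for it, with a similar phase, in another experiment not used here, so the calls below meet only a part of its rule. At 18°C, 3 of 9 members were rhythmic, *S6k*, *foxo* and *gig*, where 30.5% of 6816 genes were. *S6k* peaked at ZT17.2 ± 1.12 h (SE), in the dark, with an amplitude of 15.2% of its mean and p = 0.010. Its means of both replicates ran between 20.7 TPM at ZT6 and 34.1 TPM at ZT16. *foxo* peaked at ZT15.96 (p = 0.055) and *gig* at ZT15.7 (p = 0.065). The lowest adjusted p of a member was 0.10. With a step between light and dark phase in the model, none of the 3 passed, so a rhythm and a light-phase or incubator step cannot be told apart in these genes.

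None of 9 members was rhythmic on 5% SY, where 10.1% of 6653 genes were. In Clk-Jrk 1 of 9 was, where 18.0% of 6437 genes were, and this was *Thor*, with a peak at ZT3.76 ± 1.07 h, an amplitude of 22.3% of its mean and p = 0.018. *Thor* in Clk-Jrk had 839 and 681 TPM at ZT2 and 475 and 397 TPM at ZT18. In WT at 25°C 1 of 9 was rhythmic, where 19.0% of 6909 genes were. This was *Tsc1*, with a peak at ZT2.96 and p = 0.089, and its highest libraries at ZT2 and ZT4 of replicate 1 were those that stood apart. With the light-dark step neither passed (p = 0.19 for *Thor* in Clk-Jrk, p = 0.16 for *Tsc1*).

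The difference in rhythm between groups, tested in limma by the interaction of group with cosine and sine, passed for no member in any comparison. The shares of all genes that passed were 0.964% for temperature, 0.00% for diet and 0.0282% for genotype. At an unadjusted p below 0.05 there was 1 member for temperature, *gig* (p = 0.029), none for diet and 1 for genotype, *Thor* (p = 0.0039, adjusted p = 0.30). Rhythm in one group and not in another is thus not shown to differ for any member.

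**Figure D4:**
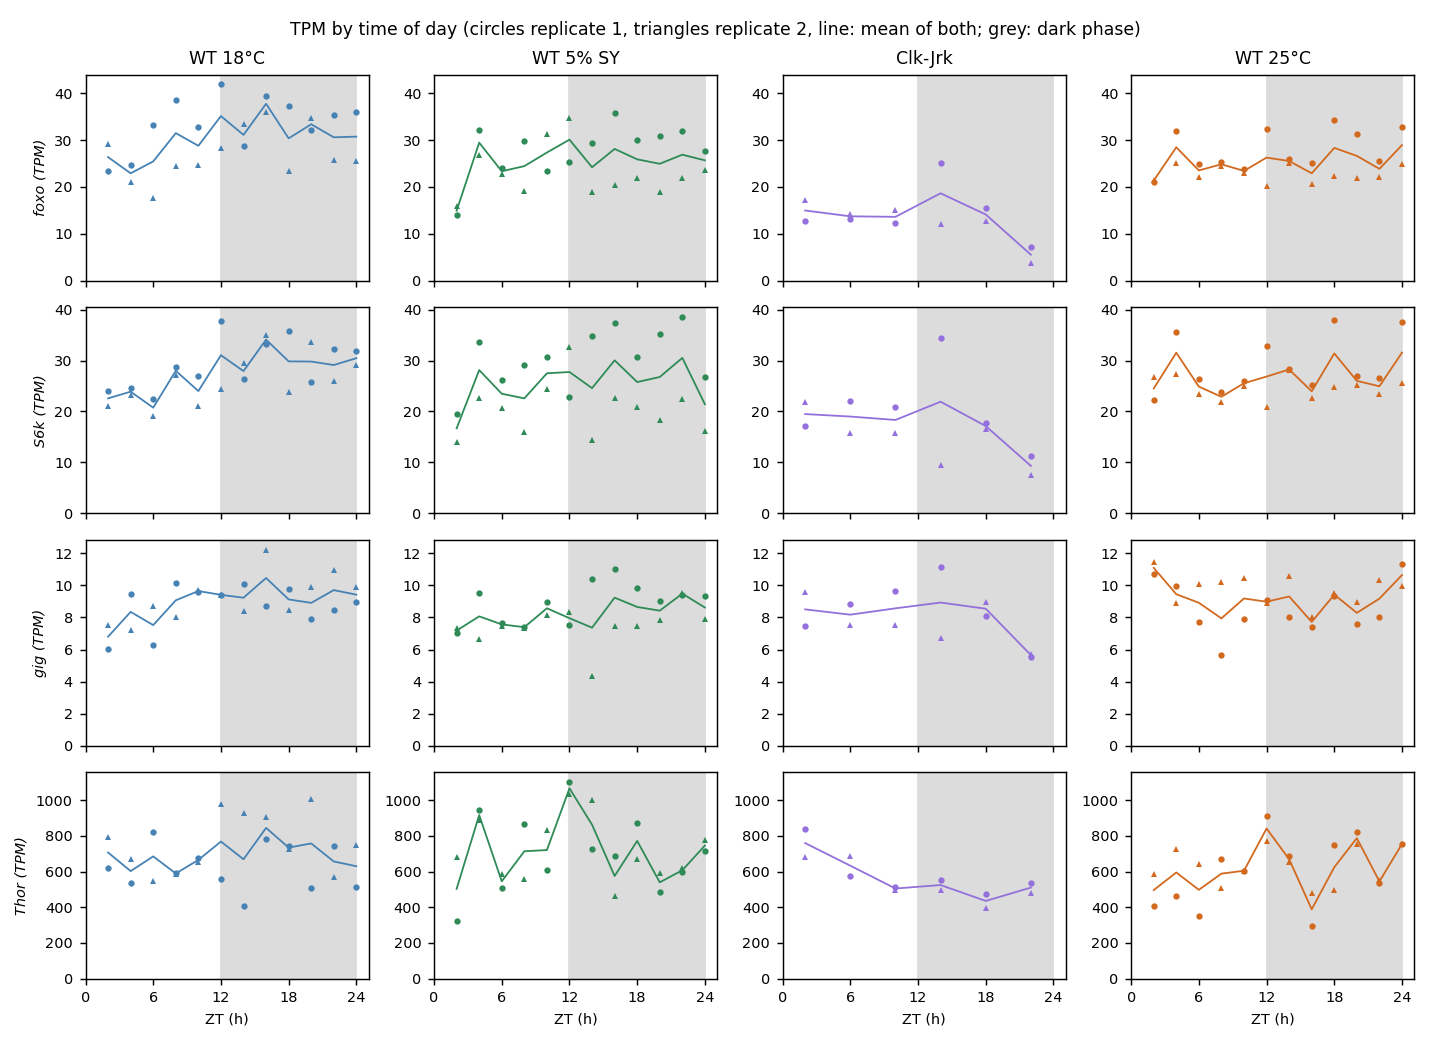
TPM of *foxo*, *S6k*, *gig* and *Thor* (vertical axes starting at 0) against ZT in hours in the 4 groups, with circles for replicate 1, triangles for replicate 2, a line for their mean and grey for the dark phase. *S6k* at 18°C runs between 20.7 TPM at ZT6 and 34.1 TPM at ZT16, and *foxo* and *S6k* in Clk-Jrk have their lowest values at ZT22.

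The members also differed between the replicate series. Replicate 1 was above replicate 2 at 10 or more of 12 time points for 3 of 9 members at 18°C, where 30.8% of all genes were, for 4 of 9 on 5% SY, where 49.1% were, and for 5 of 9 in WT at 25°C, where 25.3% were. Replicate 2 was above replicate 1 that often for 1 of 9 in WT at 25°C, where 11.9% of all genes were, and for none at 18°C or on 5% SY, where 13.6% and 7.70% were. The 1 member was *Tor*, with means of 8.36 TPM in replicate 1 and 10.2 TPM in replicate 2 in WT at 25°C, and its call at 18°C was the one lost without replicate 1. In Clk-Jrk it was above at 5 or more of 6 time points for 2 of 9, where 19.0% of all genes were, and below for none, where 7.67% were. *ImpL2* had means of 159 TPM in replicate 1 and 86.4 TPM in replicate 2 at 18°C, and of 143 and 76.8 TPM in WT at 25°C, and was higher in replicate 1 at 12 of 12 time points in both. On 5% SY it had 141 and 114 TPM and in Clk-Jrk 47.3 and 45.7 TPM. The difference between the series in *ImpL2* was thus larger than its difference between temperatures, in means of 123 TPM at 18°C and 110 TPM at 25°C. For *Thor*, neither series was above the other at 10 or more time points in any WT group.

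**Figure D5:**
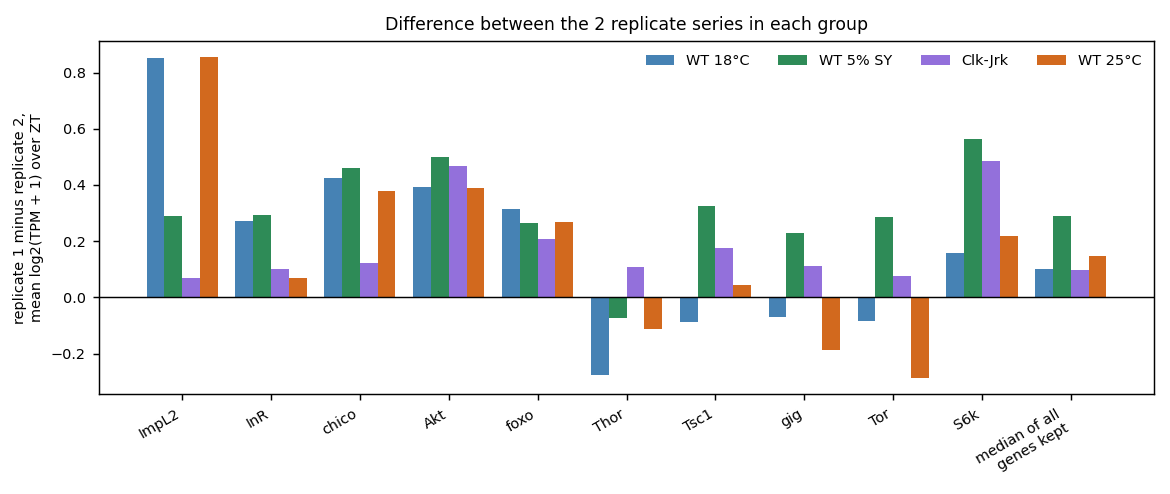
Difference of replicate 1 minus replicate 2 in log2(TPM + 1), averaged over time points (vertical axis), for each member and for the median of all genes kept, with 1 bar per group. *ImpL2* stands at 0.85 at 18°C and 0.86 in WT at 25°C, where the median of all genes is 0.10 and 0.15.

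After the mean of each group was subtracted, the members fell into unequal degrees of likeness over the 84 libraries, which share their libraries and the closed scale of TPM. The highest of the 45 correlations of log2(TPM + 1) were 0.85 for *Akt* with *S6k*, 0.82 for *foxo* with *S6k* and 0.81 for *chico* with *foxo*. *gig* and *Tor* had 0.80 and *gig* and *Tsc1* 0.70. The difference between the replicate series was not subtracted. For *chico*, *Akt*, *foxo* and *S6k*, replicate 1 was above replicate 2 at 9 or more of 12 time points in each WT group. In Clk-Jrk it was above at 3 to 5 of 6. For *gig* and *Tor* it was above at 9 of 12 on 5% SY, but replicate 2 was more often above at 18°C and in WT at 25°C. The part of the series in these correlations was not tested. *Thor* had no correlation above 0.31 with another member. Among 7242 genes, those most like *Thor* were *Odc2* (0.77), *CG5819* (0.75) and *Lst* (0.72), and those most like *foxo* were *Ptp99A* (0.85), *S6k* (0.82) and *jim* (0.82). The nearest to *InR* were *aqz* (0.85), *l(3)L1231* (0.78) and *CG45050* (0.78), and the nearest to *ImpL2* were *Pino* (0.86), *CG32512* (0.83) and *CG13124* (0.83).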

How the data were processed

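The authors trimmed single-end reads with Atropos, aligned them with STAR 2.7.10a and quantified them with RSEM 1.3.1 on BDGP6, ignoring strand and keeping duplicates. The deposited unit is TPM as RSEM gives it, so depth is unknown. Groups came from the sample labels, where titles that give the diet by calories were read as 15% or 5% SY by the growth protocol. Time points were taken from the titles, whose ZT differ from those of the protocol text.

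Genes with a median TPM above 5 in either group of a comparison (for rhythm, in the group) were kept. Mean levels and rhythm differences were tested with limma 3.58.1 in R 4.3.3 on log2(TPM + 1), with group, cosine and sine of 24 h and their interaction, and Benjamini-Hochberg adjustment over all genes kept at 0.05. This scale understates changes of low genes. Rhythm within a group was tested by harmonic regression of TPM at p below 0.1 in these libraries alone, where the study also asked for the same p and a similar phase in another experiment. Each comparison used its own groups, and all 3 share the WT libraries at 25°C.

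All members are named. Of the other pathway genes, those named had an adjusted p below 0.05 and 1 direction at 10 or more of 12 (5 or more of 6) time points, up to 5 with the largest difference each way. *Ilp1*, *Ilp2*, *Ilp3* and *Ilp5*, and *Ilp6* on 5% SY, were added after their values were seen. The members and lists were chosen with earlier results of these data known. Alternatives were a pseudocount of 0.1, median-of-ratios scaling, filters of 1 TPM and none, each replicate left out, the replicate number as a block, all 84 libraries in 1 fit, WT at 12 time points, log2 values, p below 0.05 and a light-dark step for rhythm. Leaving out the WT libraries at ZT2 and ZT4 of replicate 1 at 25°C, and ZT22, was chosen after seeing the data. Names of 17790 of 17869 FlyBase genes were found, and positions come from a later Ensembl release than the authors'. The fits were tested on simulated data.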

Additional observations from a re-analysis of the deposited data

How the results depend on the processing

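TPM keep no depth, so low genes such as *InR* carry a counting error that cannot be given. At 18°C 2 members were called in the mean, and leaving out a replicate gave 1 to 2. On 5% SY 1 member was called, 2 with scaling, 2 with the replicate number as a block, 0 without the pair of 15% SY libraries that stood apart, and 0 to 5 when a replicate was left out. In Clk-Jrk 6 were called, and 3 to 4 when a replicate was left out. For rhythm at 18°C 3 members passed, 1 at p below 0.05, 6 with the block, 0 with the light-dark step and 1 to 3 without a replicate. On 5% SY 0 passed, 1 with scaling and 0 to 1 without a replicate. In Clk-Jrk 1 passed, 0 with the light-dark step and 1 to 2 without a replicate. In WT at 25°C 1 passed, 0 on log2(TPM + 1), 0 at p below 0.05, 0 with the light-dark step, 2 with a filter of 1 TPM, 2 with the block and 0 to 2 without a replicate.

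Signs that turned belonged to differences that were not called on the deposited values. With scaling, *gig* at 18°C was 0.0026, *chico*, *Akt*, *foxo* and *Tor* on 5% SY were 0.11, 0.072, 0.098 and 0.067, and *Thor* and *Tor* in Clk-Jrk were 0.18 and 0.15. Leaving out replicate 1 and then replicate 2 gave -0.089 and 0.031 for *gig* at 18°C, and on 5% SY -0.044 and 0.038 for *chico*, -0.098 and 0.013 for *Akt*, -0.36 and 0.061 for *gig*, -0.32 and 0.25 for *Tor*, -0.29 and 0.057 for *S6k* and 0.55 and -0.020 for *ImpL2*. Of these, *gig*, *Tor*, *S6k* and *ImpL2* were called without replicate 1. In Clk-Jrk the pair was -0.15 and 0.089 for *Thor* and -0.19 and 0.12 for *Tor*. *Tor* in Clk-Jrk was 0.030 with all 84 libraries in 1 fit and 0.030 with WT at 12 time points, *Thor* in Clk-Jrk was 0.017 without ZT22, and *Akt* on 5% SY was 0.0055 without the libraries that stood apart. The cause was not tested.

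Over all genes, mean calls of 3841 at 18°C became 2307 without replicate 1, and 2247 on 5% SY became 3911 without replicate 1, 2 without replicate 2 and 804 without the pair of libraries that stood apart. In Clk-Jrk 3316 became 1963 without replicate 1 and 1536 without replicate 2. Rhythm differences of 69 genes at 18°C became 26 with scaling, 5 without replicate 1, 0 without replicate 2, 413 with the block, 44 with all libraries and 16 without the pair. In Clk-Jrk 2 became 1 with scaling, with a pseudocount of 0.1 or with no filter, 0 without either replicate, 12 with all libraries and 15 with WT at 12 time points. Rhythmic genes on 5% SY were 672, and 433 at p below 0.05 and 395 with the light-dark step. In Clk-Jrk 1156 became 642 at p below 0.05 and 458 without replicate 1, and in WT at 25°C 1311 became 622 at p below 0.05, 746 with the step, 792 without replicate 1 and 734 without replicate 2. Same-numbered libraries deviated together by mean correlations of 0.28 for temperature, 0.27 for diet and -0.17 for genotype. Of the pairs, 10 of 12, 11 of 12 and 1 of 6 were above 0.1. The rule for pairing asked for every pair above 0.1, so the main fits hold no replicate term. For temperature and diet most pairs were above it, and a difference shared by the replicate series stays in the residual spread of these fits. With the block *Tsc1* at 18°C had an adjusted p of 0.048 and *ImpL2* on 5% SY one of 0.043, both past the threshold.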

Other observations

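*Thor* was highest at ZT12 in both WT groups at 25°C, at 1102 and 1034 TPM on 5% SY and at 912 and 772 TPM on 15% SY. On 5% SY it was also high at ZT4, at 947 and 887 TPM, against 462 and 729 TPM on 15% SY at that time, and the 462 TPM came from the replicate 1 library that stood apart most. At 18°C its highest mean of a time point was 845 TPM, at ZT16. The time points were picked after the values were seen, and no test was run on them.

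The library at 18°C of replicate 1 at ZT12 held the highest values of its group for *InR* (5.40 TPM), *chico* (25.5 TPM), *Akt* (39.5 TPM), *foxo* (41.9 TPM), *S6k* (37.7 TPM) and *ImpL2* (305 TPM), while *Thor* stood there at 561 TPM, below its group median of 672 TPM.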
